A study of Drosophila melanogaster with 9 samples.

Results

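The authors' table of skipped exons for Psi RNAi and control wing discs was searched for exons of more than 50 nucleotides (nt) whose length is not divisible by 3, so that leaving them out of a coding sequence shifts the reading frame. The rule found 3463 of the 6493 rows of the table (53.3%). These rows stand for 2568 distinct exons in 1474 genes, because 1485 of them list an exon that is also listed between other neighbouring exons. The rule used length alone and no measured value.

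A cassette exon is kept in some transcripts of a gene and skipped in others. If a skipped coding exon is not a multiple of the codon length, every codon after it is read in another frame, which usually brings an early stop codon, and such transcripts can be removed by nonsense-mediated decay, in which the Upf and Smg proteins act. A skipped exon in an untranslated region leaves the protein as it is. Psi, the P-element somatic inhibitor, is an RNA-binding protein with KH domains, best known in Drosophila for repressing splicing of the P-element transposase intron through an interaction with the U1 snRNP. Myc is a transcription factor that promotes growth.

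RNA was sequenced from wing imaginal discs, the larval epithelia that form the wing, of 3 groups with 3 libraries each, namely control (tsGAL80;tubG4/+), Psi RNAi (tsGAL80;tubG4/Psi RNAi) and Myc RNAi (tsGAL80;tubG4/Myc RNAi). All groups carried the ubiquitous tubulin-GAL4 driver and temperature-sensitive GAL80, the hairpins were active for 3 days, and every library pooled 60 discs, so no cell type was singled out and pools rather than animals are the replicates. The control count files are named after the W1118 strain, so the control genotype is not certain. By the labels, larvae spent 4 days at 18 °C and then 3 days at 25 °C, the shift that releases the driver from GAL80, whereas the methods name a higher second temperature for this background, and the labels call the larvae both mid-third instar and wandering. Whether the pools of a group were raised apart is not stated, and p-values thus describe the variation among these pools, technical variation included. The splicing table covers control and Psi RNAi only, and its header does not say which of them is the first group. They are therefore called group 1 and group 2 in the order of the table, and no difference in inclusion is assigned to the knockdown. The libraries within a group are not named there either.

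The 9 libraries held 26287040 to 34401160 gene counts. Scaled to library size (CPM), the targeted gene Psi stood at 335, 322 and 323 in control discs against 74.7, 65.7 and 61.7 after Psi RNAi, lower in each knockdown library than in each control. All 18 wing disc markers read were present in every library. The 7 fat body markers summed to 707, 3717 and 11213 CPM in the controls from lowest to highest, to 262, 762 and 6862 CPM in Psi RNAi and to 826, 1091 and 2462 CPM in Myc RNAi. None of the 7 was at 0 in any library, and Fbp1 alone ranged from 111 to 5075 CPM. Haemocyte markers summed to 358 to 655 CPM in the controls and 221 to 321 CPM in Psi RNAi, and tracheal markers to 533 to 559 and 485 to 516 CPM, so both lists were lower in every Psi RNAi library than in every control. Salivary gland and gut markers reached 1601 CPM in Psi RNAi replicate 1, against 20.0 and 21.6 CPM in the other Psi RNAi libraries and 7.58 to 38.2 CPM in the controls. The part of these markers in the expression results was not tested. In pooled tissue, fewer cells of a type cannot be told apart from less RNA per cell.

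The frame-shifting exons had a median length of 181 nt and ranged from 52 to 6709 nt, with 1721 rows leaving a remainder of 1 and 1742 a remainder of 2 on division by 3. In the annotation of the same genome release, 1820 rows (52.6%) lay wholly in coding sequence, 902 (26%) were partly coding and 572 (16.5%) lay in the 5' UTR. A further 25 lay in the 3' UTR, 42 in noncoding transcripts and 102 matched no annotated exon. By comparison 68.4% of the rows for exons over 50 nt that keep the frame were wholly coding and 10.3% lay in the 5' UTR. A transcript that joins the neighbours directly, the skipping form, was annotated for 25.2% of frame-shifting rows and 44.2% of frame-keeping rows. For 91 distinct frame-shifting coding exons both forms were annotated as coding, and in 89 of them the next exon was read in other frames in the annotation. The same comparison gave 0 of 598 for frame-keeping exons. Both counts follow almost entirely from the length rule that formed the classes, so they describe the annotation and test nothing. The name of the class does not describe the exons in untranslated regions.

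Most of the exons were almost always included. Over all rows with levels the median inclusion level, the share of transcripts with the exon after correction for length, was 0.978, against 0.949 for frame-keeping exons and 0.614 for exons of at most 50 nt. Both group means exceeded 0.99 in 1028 rows (29.7%). A test needs both forms, and 1085 rows (898 exons, 604 genes) averaged 20 or more reads per library, with at least 10 inclusion and 10 skipping reads over the 6 libraries. Of the remainder, 1833 rows had too few skipping reads, 65 too few inclusion reads and 479 fewer than 20 reads per library, and 1 row had a count that could not be read. The rows that were tested therefore had a lower median level of 0.742, with 36.2% above 0.9 and 24.1% below 0.1. Most exons of the class thus gave no test, because skipping was hardly seen.

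Inclusion differed between the groups in 203 of the 1085 tested rows at an adjusted p below 0.01 (edgeR quasi-likelihood test on inclusion and skipping reads, Benjamini-Hochberg adjustment over all 2249 tested rows of the table, n = 3 per group). These were 184 exons in 133 genes. The share was 18.7%, against 18.0% of all tested rows, 18.7% of frame-keeping rows and 12.2% of short-exon rows, so the frame-shifting exons were called about as often as the table as a whole. The difference reached 0.1 in 106 of them (9.77% of those tested, and 9.78% over all rows). Higher inclusion in group 2 made up 136 of the 203 calls, with 67 higher in group 1, next to 12% and 5.87% of all tested rows that were called in those directions. The excess of calls higher in group 2 varied with the filter. With at least 5 inclusion and 5 skipping reads in each group, 71 of 132 calls were higher in group 2. Outside chromosome 4 it was 52 of 109. This limit was chosen after seeing the data, and its share over all rows is not given here. With limma on logit levels 60 of 85 calls were higher in group 2, with DESeq2 97 of 141. At 50 or more reads per library it was 126 of 189. The cause of this variation was not tested. In 202 of the 203 rows the 3 levels of one group lay entirely above those of the other. Such separation was also seen in 42.9% of all tested frame-shifting rows and in 43.7% of all tested rows. In called rows, here and in the exons that follow, it is likely from the selection by adjusted p and adds no support. The median difference was 0.106 in size among the calls and 0.031 among all tested rows of the class. The count fell to 106 without library 1 of group 1, to 125 without library 2 of group 1, and to 93, 120 and 133 without libraries 1, 2 and 3 of group 2, whereas 188 were called without library 3 of group 1. It was 85 with limma on logit levels, of which 70 were among the 203.

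**Figure D1:**
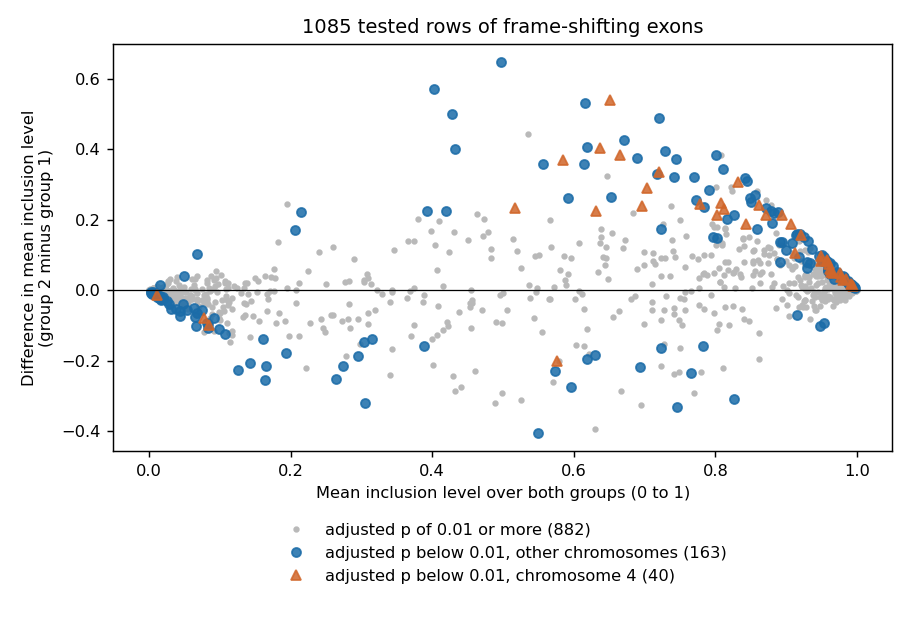
Difference in mean inclusion level (group 2 minus group 1, y axis) against the mean level over both groups (x axis, 0 to 1) for the 1085 tested rows. Grey points had an adjusted p of 0.01 or more, and coloured points were called, with triangles for the 40 on chromosome 4; at levels above 0.5 the called points lie mostly above 0.

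Exons of SF1 and Sf3b3, genes for the splicing machinery, were among the clearest changes by p. In a fixed list of splicing regulators, 4 of 17 genes with a tested exon had a called one, next to 133 of all 604 such genes. In SF1, which encodes the branch point binding protein, a coding exon of 76 nt at chr3R:17542415-17542490 had levels of 0.976, 0.979 and 0.988 in group 1 and 0.685, 0.730 and 0.602 in group 2. The groups did not overlap and the mean differed by 0.309 (log2 odds ratio of group 2 to group 1 -4.60 ± 0.35 SE, edgeR adjusted p = 7.0e-07, n = 3 per group). Both forms of this exon are annotated and read the next exon in other frames. In Sf3b3, a subunit of the SF3b complex of the U2 snRNP, an exon of 56 nt in the 3' UTR (chr3L:826946-827001) was included at 1, 0.999 and 0.995 in group 1 and at 0.899, 0.887 and 0.907 in group 2 (log2 odds ratio -5.70 ± 0.52, edgeR adjusted p = 1.9e-06). Both were higher in group 1, as were 67 of the 203 calls, and no annotated transcript skips the Sf3b3 exon.

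Exons of transcription factor genes changed as well. A coding exon of 182 nt in zfh2, a zinc finger homeodomain gene (chr4:524331-524512), rose from 0.657, 0.681 and 0.697 in group 1 to 0.984, 0.985 and 0.990 in group 2 (edgeR adjusted p = 7.0e-07). Stat92E, the transcription factor of the JAK/STAT pathway, had a partly coding exon of 413 nt (chr3R:20541680-20542092) at 0.410, 0.380 and 0.455 against 0.844, 0.837 and 0.788 (edgeR adjusted p = 8.7e-06). In cg (combgap), a zinc finger gene, a partly coding exon of 398 nt (chr2R:14180422-14180819) went from 0.111, 0.098 and 0.101 to 0.333, 0.322 and 0.325 (edgeR adjusted p = 1.6e-05). In each of these genes all libraries of group 2 lay above all libraries of group 1. The exon of 74 nt in ewg, the fly relative of NRF1 (chrX:271802-271875), had levels of 0.657, 0.594 and 0.579 in group 1 and 0.915, 0.911 and 0.965 in group 2 (edgeR adjusted p = 9.3e-05). The outcome for ewg depended on the neighbours, since a second row for the same exon with other neighbouring exons gave 0.936, 0.926 and 0.842 against 0.872, 0.949 and 0.885 (edgeR adjusted p = 0.93). The first ewg row missed the threshold with limma on logit levels (adjusted p = 0.015), as did those of LManII (0.060), unc-13 (0.038), MFS17 (0.015) and TTLL4A (0.034) described further on.

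Further exons lay in genes known from signalling pathways. The largest difference among called exons with at least 50 reads per library was in rl, the ERK MAP kinase, where a 62 nt exon of the 5' UTR (chr2R:1076816-1076877) went from 0.218, 0.117 and 0.186 to 0.875, 0.747 and 0.839 (log2 odds ratio 4.43 ± 0.54, edgeR adjusted p = 3.0e-05). This value rests on 90.7 reads per library in group 1 and 28.3 in group 2. Crk, an SH2 and SH3 adaptor, had a coding exon of 205 nt (chr4:211590-211794) at 0.466, 0.475 and 0.478 against 0.868, 0.837 and 0.866 (edgeR adjusted p = 2.8e-06). The small GTPase gene Rala had a partly coding exon of 124 nt (chrX:3707368-3707491) at 0.597, 0.651 and 0.685 against 0.900, 0.895 and 0.909 (edgeR adjusted p = 3.6e-05). Group 2 lay above group 1 in all 3 exons, and their lack of overlap is likely from the selection by p. In myo (myoglianin), a ligand of the TGF-beta family, a coding exon of 419 nt (chr4:692425-692843) went from 0.506, 0.611 and 0.542 to 0.915, 0.885 and 0.866 (edgeR adjusted p = 2.3e-05). Pitslre, a kinase of the cyclin-dependent family, had a 5' UTR exon of 359 nt (chr3L:20772605-20772963) at 0.203, 0.143 and 0.187 against 0.700, 0.581 and 0.754 (edgeR adjusted p = 2.4e-05).

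Other changes fell in genes of metabolism, transport and translation. LpR2, a lipophorin receptor, had a partly coding exon of 179 nt (chr3R:25699848-25700026) at 0.601, 0.551 and 0.676 in group 1 and 0.982, 0.994 and 1 in group 2 (edgeR adjusted p = 1.1e-06). In sesB, the mitochondrial adenine nucleotide translocase, the order was the other way, with 0.154, 0.201 and 0.153 against 0.040, 0.042 and 0.055 for a partly coding exon of 113 nt (chrX:10782777-10782889, edgeR adjusted p = 5.0e-05). The cap-binding translational repressor gene eIF4EHP had an exon of 751 nt (chr3R:24101296-24102046) at 0.269, 0.333 and 0.445 against 0.895, 1 and 0.750 (edgeR adjusted p = 0.00038). The spread within group 2 was wide, and with limma on logit levels the exon was not called (adjusted p = 0.091). The gene FBgn0039959, without a symbol in the reference, had an exon of 965 nt (chr3L:27987738-27988702) that is not annotated, at 0.589, 0.447 and 0.560 against 0.935, 0.939 and 0.907 (edgeR adjusted p = 2.0e-05).

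**Figure D2:**
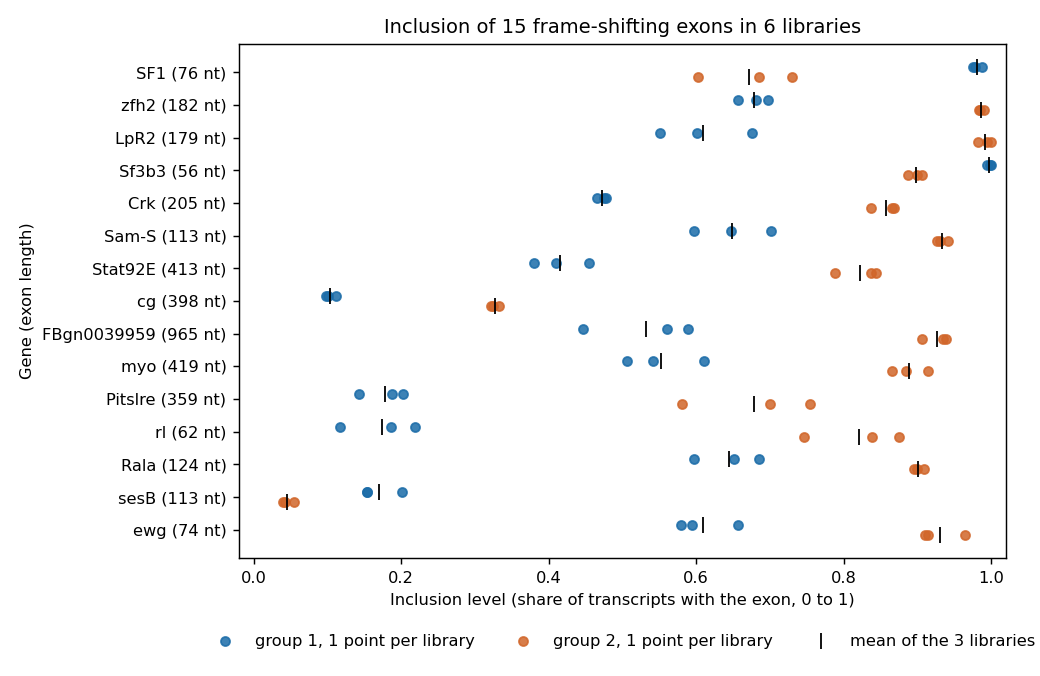
Inclusion level (x axis, 0 to 1) of the 15 called frame-shifting exons of smallest p with a difference of at least 0.1, 1 per gene. Each point is 1 library and each bar the mean of 3 libraries; the groups do not overlap in any exon, and group 2 is higher in all but SF1, Sf3b3 and sesB.

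The calls were unevenly spread over the chromosomes. On chromosome 4, a small and largely heterochromatic autosome, 40 of 93 tested rows were called (43.0%), in 20 of 33 genes, against 163 of 992 elsewhere (16.4%). On the other arms the share ran from 12.8% on X to 19.5% on 2R. Of the 40, 36 were higher in group 2, and 81.7% of all 93 rows had a higher mean level in group 2, against 54.2% elsewhere. With 1 row per exon, the deepest, the counts were 30 of 73 and 143 of 825. The frame-keeping exons of chromosome 4 were called in 14 of 66 rows (21.2%), all 14 higher in group 2, against 18.5% elsewhere. The difference by chromosome was noticed in these data and given no test. Rows of chromosome 4 also had a median of 307 reads per library against 221, a median level of 0.912 against 0.711, and no annotated skipping form in 71 of 93 rows against 416 of 992. Within rows without an annotated skipping form 43.7% were called there and 17.5% elsewhere, and within the remainder 40.9% and 15.6%. The part of depth and level was not tested. Chromosome 4 stood above the remainder of the genome under every alternative computed, from 11.6% against 3.67% with no filter on counts to 42.9% against 17.0% with at least 50 reads per library.

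Further called exons of chromosome 4 are given as examples. Besides zfh2, Crk and myo, called coding exons lay in Hcf, a chromatin cofactor (238 nt, chr4:369507-369744), at 0.544, 0.579 and 0.555 against 0.875, 0.867 and 0.804 (edgeR adjusted p = 0.00022). In zfh2, 3 exons were called, and the 586 nt coding exon (chr4:537175-537760) stood at 0.704, 0.807 and 0.708 against 0.948, 1 and 1. The gene unc-13, known for priming synaptic vesicles, had 4 called exons, with the 358 nt coding exon (chr4:873214-873571) at 0.392, 0.381 and 0.533 against 0.919, 0.864 and 0.731 (edgeR adjusted p = 0.00026). All libraries of group 2 exceeded those of group 1 in the 3 exons given here, while 1 of the 4 unc-13 exons was higher in group 1. In pan, the TCF of the Wnt pathway, a partly coding exon of 274 nt (chr4:72321-72594) stood at 0.627, 0.245 and 0.271 against 0.923, 0.838 and 1 (edgeR adjusted p = 0.0053), with 34 reads per library. The choice of Hcf and pan, and of further exons of zfh2, Dbp80, crol, Sin3A and Adar, was made with the values in view. In expression, 1 of the 20 genes of chromosome 4 with a called exon changed between Psi RNAi and control, with a median log2 fold change of -0.05. Over all 91 tested genes of that chromosome 8 changed, 4 up and 4 down (8.79%, against 4.07% of all genes).

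The direction of the change went with the annotation of the skipping form. Where no annotated transcript skips the exon, 104 of 487 tested rows were called (21.4%) and 94 of the 104 were higher in group 2, so that skipping was more frequent in group 1. Where skipping is annotated, 99 of 598 rows were called (16.6%), with 42 higher in group 2 and 57 higher in group 1. This balance turned with 1 library left out, to 31 of 58 higher in group 2 without library 1 of group 1 and 26 of 50 without library 1 of group 2. The median levels also differed, at 0.957 and 0.168. Frame-keeping exons gave 55 of 60 calls higher in group 2 without an annotated skipping form and 60 of 109 with one. Outside chromosome 4 the first count was 64 of 73. If at least 5 inclusion and 5 skipping reads were required in each group, 36 of 45 calls without an annotated skipping form were higher in group 2. Wholly coding exons were called in 90 of 439 rows (20.5%), 77 of them higher in group 2, and 5' UTR exons in 41 of 267 rows (15.4%), 25 higher in group 2. Partly coding exons, called in 58 of 334 rows (17.4%), were split into 26 higher in group 2 and 32 higher in group 1. The part of level, depth and annotation in this split was not tested.

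**Figure D3:**
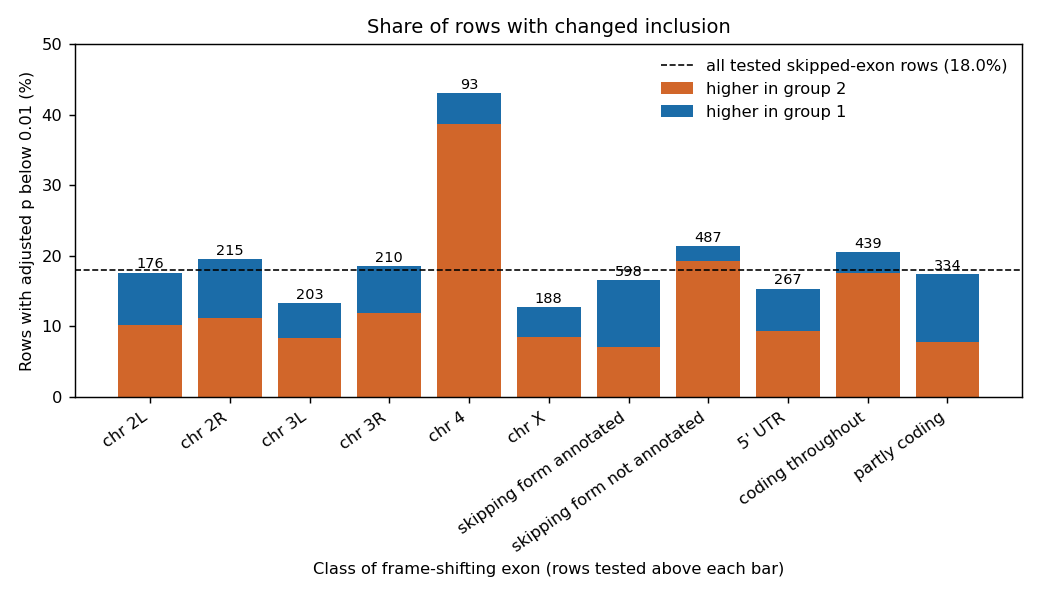
Share of tested frame-shifting rows with an adjusted p below 0.01 (y axis, %), by chromosome, by annotation of the skipping form and by place in the transcript, with the number of tested rows above each bar. Orange parts were higher in group 2 and blue parts in group 1; the dashed line is the 18.0% of all tested rows, which chromosome 4 exceeds with 43.0%.

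In a few genes, neighbouring exons of equal length moved against each other, the arrangement known from mutually exclusive exons, of which a transcript normally carries only 1. Among tested exons, 21 pairs in 18 genes had the same length and lay within 5000 nt of each other. In 5 pairs both exons were called, and in 4 of these the directions were opposite. The pairs were looked for after the data had been seen and are given as a description. In Sam-S, the S-adenosylmethionine synthetase, the 113 nt exon at chr2L:111005-111117 went from 0.129, 0.127 and 0.094 to 0.021, 0.018 and 0.010, while that at chr2L:111907-112019 went from 0.597, 0.648 and 0.701 to 0.942, 0.927 and 0.931 (edgeR adjusted p = 7.3e-06 and 3.8e-06). LManII, a lysosomal alpha-mannosidase, showed the widest exchange, with its 134 nt exons at 0.445, 0.440 and 0.487 against 0.778, 0.974 and 0.903 (chr2L:10459384-10459517) and at 0.304, 0.261 and 0.309 against 0.074, 0.023 and 0.016 (chr2L:10459662-10459795). In both genes the groups were fully separated at either exon.

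An exchange of similar size was found on chromosome 4. In unc-13 the 107 nt exons stood at 0.731, 0.601 and 0.759 against 0.912, 0.947 and 0.920 (chr4:881843-881949) and at 0.622, 0.724 and 0.684 against 0.476, 0.464 and 0.490 (chr4:882617-882723). Syp, an RNA-binding protein, had 136 nt exons near the ends of the scale, at 0.984, 0.973 and 0.986 against 0.996, 0.999 and 0.999 (chr3R:20793716-20793851) and at 0.012, 0.011 and 0.007 against 0.001, 0.002 and 0.000 (chr3R:20795139-20795274). The Syp differences of 0.017 and -0.009 were small, without overlap between the groups. In Tm1, a tropomyosin gene, both called exons of 118 nt rose together.

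**Figure D4:**
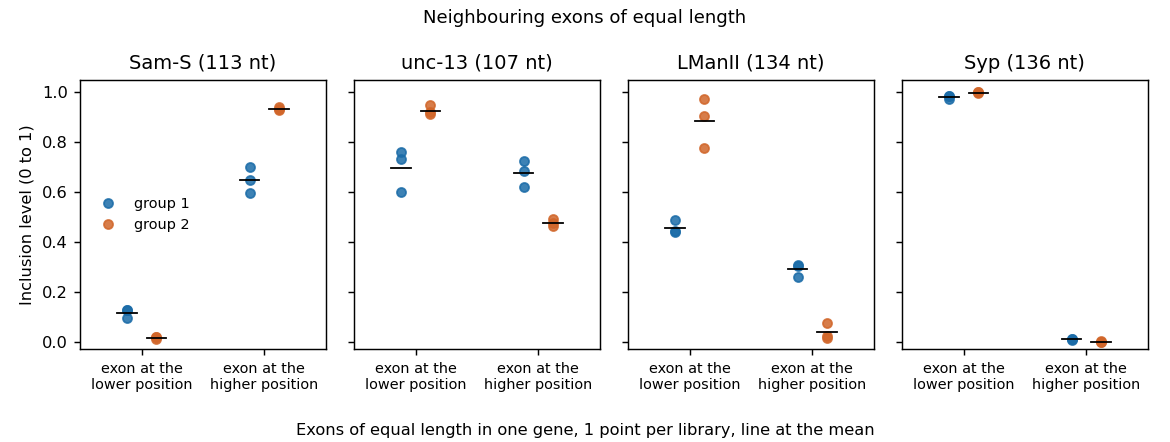
Inclusion level (y axis, 0 to 1) of neighbouring exons of equal length in the 4 genes where both were called in opposite directions. Points are libraries, lines are means, blue is group 1 and orange group 2; in Sam-S, unc-13 and LManII one exon rises in group 2 while its neighbour falls, and in Syp both stay near 1 and 0.

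Several exons were called in 37 of the 133 genes, with 27 genes having 2, 6 having 3 and 4 having 4. Overlapping versions of an exon count separately here, as in crol, a zinc finger gene with 3 versions of one exon (1388, 1304 and 770 nt) at differences of -0.20, -0.18 and -0.16, and a 5' UTR exon of 110 nt at 0.079. In Sin3A, a corepressor, 3 versions of one rarely included exon were all higher in group 1. Among genes for other RNA-binding proteins, a 92 nt 5' UTR exon of Hrb27C, an hnRNP gene (chr2L:6922735-6922826), stood at 0.605, 0.607 and 0.699 against 0.809, 0.807 and 0.813 (edgeR adjusted p = 0.0020). This outcome depended on the neighbours. The other tested rows of the same exon stood at 0.995 or more in every library and were not called (edgeR adjusted p = 0.13, 0.27 and 0.37). A 5' UTR exon of 118 nt in heph, the polypyrimidine tract binding protein (chr3R:31975448-31975565), stood at 0.918, 0.749 and 0.841 against 1, 1 and 0.986 (edgeR adjusted p = 0.0015). Of 50 splicing regulators listed, 24 had a frame-shifting exon in the table, 17 a tested one and 4 a called one (SF1, Syp, heph and Hrb27C), next to 133 of the 604 genes with a tested exon (22%).

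Next it was asked whether genes with these exons changed in expression, from the gene counts of control and Psi RNAi, where the groups are named. Of the 1474 genes, 1453 were tested and 103 changed at an edgeR adjusted p below 0.01 (7.09%, against 4.07% of all 9235 tested genes, n = 3 per group). Of these, 79 fell and 24 rose (5.44% and 1.65%, against 2.27% and 1.80% of all genes). The median log2 fold change was -0.01 in both sets. These genes were expressed at a higher level than most, with a median of 108 CPM in the controls against 35.6 CPM over all genes. Among the 6064 genes with at least 15.3 CPM in the controls, a level that excludes the lowest 10% of the genes with these exons, 161 fell (2.66%) and 76 rose (1.25%). Genes with a frame-keeping row had 53 falls and 16 rises among 1108 (6.23% called). The count of 103 fell to 41, 50 and 48 without control replicates 1, 2 and 3, and to 46 and 45 without Psi RNAi replicates 1 and 2. It was 25 without both control replicate 1 and Psi RNAi replicate 1, whose fat body markers summed to 11213 and 6862 CPM, the highest of their groups. The shares of all genes under these settings are not given here. The counts thus do not show whether the excess over all genes held.

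Genes with a changed exon were then set beside genes whose exon was tested and did not pass, without a test of the difference between the shares. Of 132 tested genes with a called exon 17 changed (12.9%), 12 down and 5 up, against 31 of 467 with none called (6.64%), 26 down and 5 up. Over all genes with a tested frame-shifting row, called or not, 48 of 599 changed (8.01%). For genes with a called frame-keeping exon the count was 12 of 121 (9.92%). For all genes with a tested frame-keeping row, the 121 included, it was 28 of 498 (5.62%). A higher share beside a called exon was thus seen in both classes. With a called frame-shifting exon whose difference was 0.1 or more, 14 of 80 genes changed (17.5%). Where the called exon was wholly coding, 9 of 61 genes fell and 1 rose, and the median log2 fold change was -0.07. Where no annotated transcript skips the called exon, all 9 genes that changed, of 73, had fallen. Falls also made up 26 of the 31 changes among genes with none called. Some of these exons, as in Wwox and CG41520, stood at 1 in all libraries of group 2, so their skipping reads came from group 1. The count of 9 was not redone with both forms required in each group. Most genes with a changed exon did not change in expression by this test, however, and the median size of the log2 fold change was 0.10, close to 0.10 in those with none called and 0.13 over all genes. Over the 132 genes the size of the exon difference and the size of the log2 fold change had a Pearson correlation of 0.32 and a Spearman correlation of 0.26, and over all 599 genes with a tested exon 0.20 and 0.15. These are descriptions across genes, which share libraries and depth. The 17 fell to 7, 8 and 8 without control replicates 1, 2 and 3, to 8 and 6 without Psi RNAi replicates 1 and 2, and to 5 without control replicate 1 and Psi RNAi replicate 1. Counts for the genes with none called are not given under these settings, so whether the shares still differed is not shown.

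**Figure D5:**
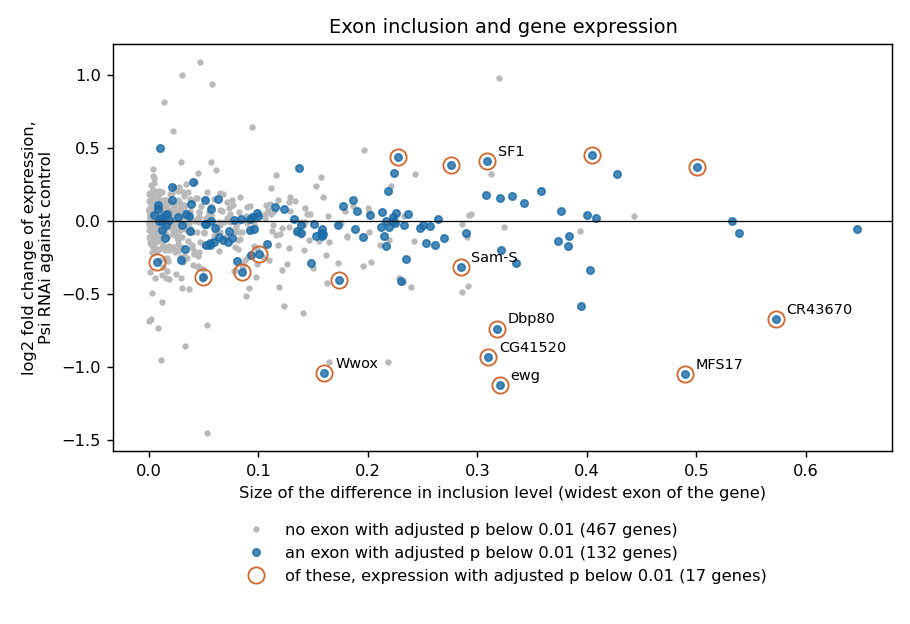
log2 fold change of expression in Psi RNAi against control (y axis) against the size of the widest difference in inclusion among the gene's frame-shifting exons, or among its called ones where it had any (x axis), for 599 genes. Blue points are the 132 genes with a called exon and circles the 17 that also changed in expression; 12 circles lie below 0 and 5 above.

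Of the 17 genes, 5 kept their call of expression in all 12 alternatives computed, namely SF1, ewg, Wwox, Dbp80 and MFS17. SF1 stood at 253, 264 and 254 CPM in the controls and 346, 338 and 340 CPM in Psi RNAi (log2 fold change 0.41 ± 0.04 SE, edgeR adjusted p = 0.00032). In Myc RNAi it was at 231, 230 and 244 CPM, which was not called (-0.13 ± 0.04, edgeR adjusted p = 0.030). All Psi RNAi libraries lay above, and all Myc RNAi libraries below, the controls. ewg fell from 148, 142 and 143 CPM to 60.4, 64.1 and 74.3 CPM (-1.12 ± 0.08, edgeR adjusted p = 3.9e-05). Wwox, a WW domain oxidoreductase, fell from 29.3, 30.3 and 29.1 CPM to 14, 14.5 and 14.6 CPM (-1.04 ± 0.07, edgeR adjusted p = 2.6e-05). Its coding exon of 130 nt (chr2L:8000304-8000433) stood at 0.921, 0.783 and 0.815 in group 1 and 1 in all libraries of group 2 (edgeR adjusted p = 0.00026).

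Dbp80, a DEAD-box helicase of mRNA export, fell from 139, 142 and 134 CPM to 83.7, 87.7 and 77.4 CPM (-0.74 ± 0.07, edgeR adjusted p = 0.00039). Of its 4 called exons, 3 were higher in group 2 and 1 in group 1. A coding exon among the 3 (chr3L:27331994-27332108) stood at 0.937, 0.947 and 0.954 against 0.997, 0.995 and 0.994. MFS17, a transporter of the major facilitator family, fell from 53.6, 57.8 and 52.9 CPM to 28.7, 26.8 and 23.8 CPM (-1.05 ± 0.10, edgeR adjusted p = 0.00049). A 5' UTR exon of 179 nt in MFS17 (chr2R:2562627-2562805) stood at 0.256, 0.232 and 0.249 against 0.020, 0.058 and 0.043, while the gene's other called exons, of 266 and 119 nt, were higher in group 2. In these 5 genes control and Psi RNAi libraries did not overlap in expression. Such separation, here and in the genes that follow, is likely in genes selected by adjusted p and adds no support. Its share over all genes is not given here.

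The other 12 genes lost their call in at least 1 alternative. The rises were TTLL4A, of the tubulin tyrosine ligase-like family (0.44 ± 0.05), Nadk1a, a NAD kinase gene (0.45 ± 0.07), CG8929 (0.38 ± 0.06) and Pitslre (0.37 ± 0.06), all with higher expression in each Psi RNAi library than in each control. TTLL4A was lost only without control replicate 1 and Psi RNAi replicate 1 (edgeR adjusted p = 0.014), and its 688 nt exon (chr2L:10990096-10990783) stood at 0.125, 0.146 and 0.450 against 0.026, 0.012 and 0.000. The Nadk1a exon of 403 nt (chr2R:13542161-13542563) stood at 0.739, 0.765 and 0.751 against 0.232, 0.413 and 0.397 (edgeR adjusted p = 0.0061) and passed in 3 of 10 alternatives. That of CG8929 (268 nt, chr2R:20327867-20328134) stood at 0.771, 0.734 and 0.697 against 0.480, 0.412 and 0.482 (edgeR adjusted p = 0.00026). Except in Pitslre, inclusion of these exons was lower in group 2.

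The falls included CG41520 (-0.93 ± 0.13), with a coding exon of 187 nt (chr2R:1772028-1772214) at 0.675, 0.687 and 0.708 against 1 in all 3 libraries, and g (garnet), a subunit of the AP-3 complex (-0.35 ± 0.05), with a coding exon of 74 nt (chrX:13731549-13731622) at 0.875, 0.938 and 0.923 against 1, 0.990 and 1. The noncoding gene CR43670 fell by 0.67 on the log2 scale (SE 0.09), and its 124 nt exon (chr2L:16702973-16703096) went from 0.095, 0.113 and 0.143 to 0.773, 0.629 and 0.666 at 31.3 reads per library. Sam-S and Sf3b3, described above, fell from 421, 398 and 393 to 326, 337 and 308 CPM and from 267, 270 and 271 to 227, 229 and 236 CPM (-0.32 ± 0.05 and -0.22 ± 0.03, edgeR adjusted p = 0.0050 and 0.0043). Adar, which edits adenosines in RNA (-0.41 ± 0.07), CaMKI, a calcium and calmodulin dependent kinase (-0.39 ± 0.07), and CG10353 (-0.28 ± 0.05) completed the list. In Adar a coding exon of 166 nt (chrX:1781718-1781883) stood at 0.744, 0.719 and 0.852 against 0.925, 0.968 and 0.944. Adar had 2 called exons, and the other was higher in group 1. All of these genes were lower in each Psi RNAi library than in each control library, which their selection by adjusted p makes likely.

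Large changes of inclusion also occurred without a called change of expression. For rl, 91.7, 93.2 and 84.4 CPM in control discs stood against 94.8, 83.7 and 80.9 CPM after Psi RNAi (-0.05 ± 0.10, edgeR adjusted p = 0.77). Stat92E had 288, 266 and 267 CPM against 265, 293 and 277 CPM (0.02 ± 0.06, edgeR adjusted p = 0.83), cg had a log2 fold change of 0.00 ± 0.04 and eIF4EHP of 0.00 ± 0.06. The libraries of these genes overlapped between the groups. LpR2 and Crk had values of -0.17 ± 0.05 and -0.10 ± 0.05, myo of -0.29 ± 0.06 and zfh2 of 0.18 ± 0.06, with edgeR adjusted p-values of 0.054, 0.21, 0.016 and 0.11.

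Of 15 genes that the study's text names, 9 had a frame-shifting exon in the table and 5 a tested one, of which SF1 and ewg were called. B52, an SR protein, had a partly coding exon of 1480 nt (chr3R:13663455-13664934) at 0.013, 0.013 and 0.016 against 0.017, 0.019 and 0.017 (edgeR adjusted p = 0.29). Its expression fell from 883, 892 and 936 to 765, 777 and 786 CPM (-0.22 ± 0.04, edgeR adjusted p = 0.0050). Saf-B, a scaffold attachment factor, had a coding exon of 1039 nt (chr3R:24819729-24820767) at 0.417, 0.463 and 0.391 against 0.307, 0.286 and 0.381 (edgeR adjusted p = 0.086), separated between groups but not past the threshold. In chic, the fly profilin, the deepest tested exon (293 nt, chr2L:5979412-5979704) was above 0.99 in all 6 libraries (edgeR adjusted p = 0.039). The frame-shifting exons of dally, dlp, fz2 and Srrm234 had too few skipping reads for a test, with levels of at least 0.994 in every library.

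The genes of nonsense-mediated decay and the exon junction complex were also looked up, as a list of 15. In Psi RNAi 0 of the 15 passed an edgeR adjusted p below 0.01. An unadjusted edgeR p below 0.05 was found for 9, and 3 passed with DESeq2. The shares of all genes at these 2 limits are not given here, so the counts show no excess. The median log2 fold change was 0.10, and the smallest p was that of mago, a core subunit of the exon junction complex (0.28 ± 0.07, edgeR adjusted p = 0.029). In Myc RNAi 2 of the 15 passed an edgeR adjusted p below 0.01, both lower, next to 19.0% of all genes. There 9 likewise had an unadjusted edgeR p below 0.05 and 5 passed with DESeq2, with a median log2 fold change of -0.09. Of the 15, 1 had a frame-shifting exon in the table (pcm, a 5' to 3' exoribonuclease) and it could not be tested. Of the 50 splicing regulators 5 passed in Psi RNAi, the targeted gene included, next to 4.07% of all genes. su(sable) rose from 151, 140 and 143 to 280, 305 and 292 CPM (1.01 ± 0.05), and hfp, the PUF60 relative, fell from 340, 367 and 362 to 228, 212 and 250 CPM (-0.63 ± 0.07, edgeR adjusted p = 0.00065). The others were Psi itself, SF1 and B52. The list's median log2 fold change was -0.03, against -0.01 over all genes.

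In Myc RNAi, which has no splicing table and shares its controls with Psi RNAi, 312 of the 1453 genes with a frame-shifting exon changed (21.5%, against 19.0% of all genes), 200 up and 112 down. Among the 6064 genes with at least 15.3 CPM in the controls 23.7% changed, a higher share than 21.5%, with 8.31% up and 15.4% down. Over all genes 7.60% rose and 11.4% fell. Rises thus prevailed among the genes with a frame-shifting exon, and falls among both wider sets. Genes with a frame-keeping row had 163 rises and 90 falls (14.7% and 8.12%), likewise with more rises than falls. Of the 132 genes with an exon called between control and Psi RNAi, 36 changed in Myc RNAi (27.3%), 21 up and 15 down. Of the 467 genes with a tested exon and none called, 94 changed (20.1%). A higher share beside a called exon was thus seen in both knockdowns, without a test of the difference. ewg and Wwox were lower in Myc RNAi too (-0.44 ± 0.08 and -0.71 ± 0.07), Dbp80 stood at -0.05 ± 0.07 and MFS17 at 0.25 ± 0.10, each against the same controls. The count of 312 was 192 and 204 without control replicates 1 and 2 and 193 without Myc RNAi replicate 1, with no share of all genes given beside these.

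The length limit fell between exons of 50 and 52 nt, since 51 is a multiple of 3. Just inside it, the deepest tested exons of 52 nt lay in Sf3b3 (3' UTR), eIF4G1 and Gprk1, with levels from 0.973 to 1. Just outside, a 50 nt exon of sun was included at 0.001 to 0.012, and 49 nt exons of the 5' UTR in hts and rgn had means of 0.817 and 0.785 in group 1 and 0.998 and 0.937 in group 2.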

How the data were processed

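Poly(A) RNA of 9 wing disc pools was sequenced. Per the labels and the methods of the study, the authors aligned reads with TopHat2 2.1.1 to FlyBase release 6.10 and counted them per gene with HTSeq 0.6.1, which gave the deposited read counts of 17471 genes. Library sizes exclude the 5 lines of totals that HTSeq adds (reads without a feature were 1.28% to 1.90%, ambiguous reads 1.52% to 1.80% and reads not aligned uniquely 9.52% to 15.8%). The deposited table of skipped exons came from rMATS 4.0.2, with inclusion and skipping counts across junctions and within the exon, and an inclusion level for each library.

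The table joins the 3 libraries of a group in 1 cell, and in 765 of the 1085 tested rows the commas had been lost from a cell. Digits were split so that the deposited levels came back within 0.0005, and the most even split was taken where several fitted. In 94.1% of the tested rows only 1 split fitted, and 6492 of 6493 rows were recovered. The table calls its groups only first and second.

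Inclusion and skipping reads were tested with the quasi-likelihood test of edgeR 4.0.16 in R 4.3.3 after the filters given in the text, and gene counts with the same test, TMM scaling, edgeR's expression filter and all 9 libraries. Adjusted p-values are Benjamini-Hochberg values, called below 0.01. Each SE printed is the size of the log2 estimate divided by the square root of its F statistic, not a separately fitted standard error. Both fits were tested on simulated data. The biological coefficient of variation of gene counts was 23%, and the number of pools limits the precision. Alternatives used DESeq2 1.42.0, limma 3.58.1 (levels held 0.01 away from 0 and 1), other filters, and each library left out. Deviations of same-numbered libraries correlated at 0.304, 0.0901 and 0.212 between control and Psi RNAi, so these were not treated as paired, and at 0.309, 0.232 and 0.442 between control and Myc RNAi, which counts as pairing seen in the data alone.

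Exons named were the 15 of smallest p with a difference of at least 0.1, the 8 of largest difference at 50 or more reads per library, up to 12 genes also changed in Psi RNAi expression, genes the study names, the exons nearest the length limit and members of the fixed lists. The exons and lists were chosen with earlier results of these data known, and other names were added with values in view. Positions and transcript structures came from Ensembl release 115 on the same assembly. Columns with the authors' own fold changes and p-values, 18 columns of per-sample values in the expression tables and 24 joined columns in the other splicing tables were not used. No genome sequence was used here.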

Additional observations from a re-analysis of the deposited data

How the results depend on the processing

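The count of 203 called rows of frame-shifting exons was 106 with only differences of at least 0.1, 85 with limma, 132 with at least 5 inclusion and 5 skipping reads in each group (chosen after seeing the data) and 93 to 188 with 1 library left out. Over all rows, 404 became 220 with only differences of at least 0.1, 169 with limma and 195 to 392 with 1 library left out. With DESeq2 141 frame-shifting rows passed, all 141 among the 203, and 32 of the 203, in 27 genes, passed in every fit that held all rows. Of the genes with a frame-shifting exon, 103 changed in Psi RNAi, 222 with DESeq2, 41 to 82 with 1 library left out and 25 without both libraries richest in fat body transcripts (added after seeing the data). The 312 in Myc RNAi became 479, 192 to 256 and 120 under the same settings, and the 17 with a changed exon became 27, 6 to 12 and 5. For expression, the counts over all genes under these settings are not given here. With the replicate number as a block the Myc RNAi count was 347 and the last count 18, and among the 17 genes the block ended the call of CG10353 only. No paired analysis was possible because the splicing table carries no replicate numbers, as far as inclusion is concerned. The second ewg row, not called, changed sign without library 3 of group 1 (adjusted p = 0.657) and without library 2 of group 2 (0.783), with leave-one-out values from 0.657 to 0.838. The Gprk1 exon changed sign without library 1 of group 1 (0.911), with leave-one-out values from 0.277 to 0.911. The cause of these changes was not tested. Exons with few skipping reads could not be tested at this depth.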
